A study of Mus musculus with 3 samples.

Results

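The epidermal growth factor (EGF) receptor family, its ligands and the receptor antagonist Lrig1 were examined as a set of 10 genes among 44625 gene entries of 1 expression table. They were chosen by symbol, as 3 receptors (Egfr, Erbb2 and Erbb3), 6 ligands (Hbegf, Tgfa, Ereg, Epgn, Areg and Btc) and Lrig1, and all 10 symbols occurred with 1 entry each. Polyadenylated RNA was sequenced in 3 libraries from the back skin of wild-type mice at postnatal day 56, when hair follicles are in their second resting phase (telogen). Cells were released with trypsin and sorted as live integrin alpha6-positive, Sca1-negative cells (Αlpha6+/Sca1-), a gate that takes basal cells of the follicle and sets aside much of the surface epidermis. The labels' protocol names an antibody to integrin alpha6 and none to Sca1. All 3 libraries belong to 1 group, so no contrast between conditions was fitted. The labels speak of biological duplicates while 3 libraries were given, so the spread between them may be partly technical.

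EGF receptors are tyrosine kinases at the cell surface that pair up when a ligand binds and then signal through Ras and MAP kinases, phosphoinositide 3-kinase and Stat3. The ligands are made as membrane-bound precursors and are released by metalloproteases, so a cell may signal to itself or to its neighbours. In skin, EGF receptor signalling is known for its part in keratinocyte proliferation and survival and in the hair cycle, and Lrig1 is known both as an antagonist of these receptors and as a marker of stem cells in the upper follicle.

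The libraries held 29283936 to 39198620 counts. Of the 8 hair follicle stem cell markers examined, 8 had a mean of at least 1 TPM (a level per gene length, brought to one total in every library), with summed levels of 24348 to 31334 TPM. The sorting antigen Itga6 had 102 to 120 TPM, and Ly6a, which encodes Sca1, had 3.16, 11.6 and 8.99 TPM in replicates 1, 2 and 3. Replicate 1 stood apart from the others. On the log2(TPM + 1) scale it lay above their mean by a median of 0.24 over 13663 genes with a mean of at least 1 TPM, and by 0.06 after scaling to the upper quartile. Summed early response genes, known to follow growth factors and also tissue dissociation, were at 27549, 17784 and 12757 TPM in replicates 1, 2 and 3. Suprabasal epidermis markers were at 1648, 3144 and 5017 TPM. In such bulk samples, fewer cells of a type and less RNA per cell cannot be told apart.

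All 10 genes were detected, with at least 1 TPM in each of the 3 libraries, where 54.9% of all protein-coding genes had a mean of at least 1 TPM. They fell into an upper and a lower tier of 5 genes each. Egfr, Lrig1, Erbb2, Hbegf and Erbb3 had 30.8 to 73.7 TPM over all libraries, resting on 1361 to 11388 counts. Tgfa, Ereg, Epgn, Areg and Btc had 2.71 to 12.8 TPM, resting on 46 to 815 counts. The tiers did not overlap in any library, and the lowest value of the upper tier was 2.41 times the highest of the lower tier. Among genes with at least 1 TPM in the same library, the upper tier lay between the percentiles of 70.8 and 87.4 and the lower tier at or under 47.7. Leaving out replicate 1, which stood apart, the means were 65.5 TPM for Egfr, 65.4 for Erbb2, 55.4 for Lrig1, 55.0 for Hbegf and 33.3 for Erbb3, and 3.62 to 8.14 TPM for the other 5.

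**Figure D1:**
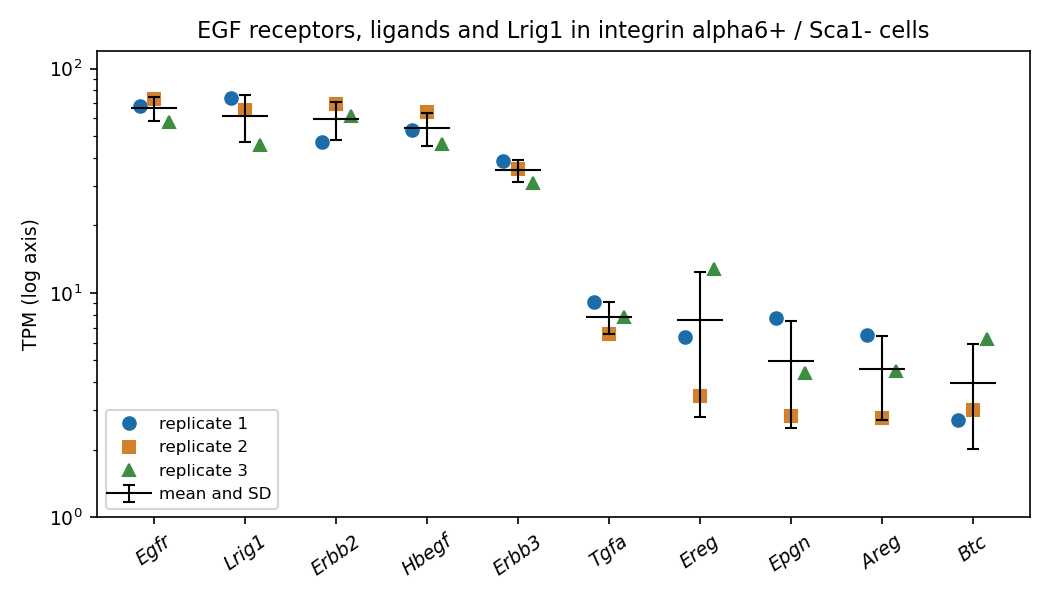
Level of each of the 10 genes in TPM (log axis), ordered by mean; symbols are the 3 libraries and the black line with bars is the mean with its SD. All 3 receptors, Lrig1 and Hbegf lie at or above 30.8 TPM, and the other 5 ligands at or below 12.8 TPM.

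The step between the tiers was the widest between neighbours in this order. Order and tiers were taken from these same values, so tests of neighbours give them no independent support. Erbb3 exceeded Tgfa within each library by 2.04 ± 0.22 on the log2(TPM + 1) scale (mean ± SD, n = 3), with differences of 1.97, 2.29 and 1.86. Hbegf exceeded Erbb3 by 0.61 ± 0.19, also in 3 of 3 libraries. For both pairs the two-sided exact sign-flip permutation test gave p = 0.25, the smallest that 3 libraries allow, and an adjusted p of 0.75 over the 12 pairs compared. In the other 7 neighbouring pairs the sign of the difference varied between libraries and the mean difference was smaller than its SD. Which of 2 such neighbours was higher was thus not settled. Between genes further apart in the order, Egfr exceeded Hbegf, and Tgfa exceeded Epgn, Areg and Btc, in each of the 3 libraries.

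Egfr, the receptor that all 6 of these ligands can bind, had the highest mean, 66.4 ± 8.13 TPM (SD, n = 3). Its values were 68.4, 73.4 and 57.5 TPM in replicates 1, 2 and 3, from 8350, 11388 and 10048 counts (GRCm38 chromosome 11, 16752203 to 16918158, plus strand). The libraries differed by at most 1.28 times. An antisense gene, Egfros, overlaps Egfr and held 60, 100 and 147 counts. Since the strand setting of the counting was not stated, reads of overlapping genes cannot be told apart, which also touches Erbb2 (9 bases shared with Mien1), Lrig1 (144 bases shared with Slc25a26), Ereg (152 bases shared with Gm19610) and Tgfa (2360 bases shared with Gm43917).

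Erbb2, a receptor with no known ligand of its own that serves as a partner of the others, had 47.0, 69.5 and 61.3 TPM in replicates 1, 2 and 3 (chromosome 11, 98412470 to 98437716, plus strand). Replicate 1 was low and the others high. The ratio of Erbb2 to Egfr was 0.688, 0.947 and 1.07, so which of the 2 receptors was higher differed between libraries. Their difference was 0.17 ± 0.32 on the log2 scale (n = 3, exact sign-flip p = 0.75).

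Erbb3, which binds neuregulins and has little kinase activity, had 38.8, 35.8 and 30.8 TPM (chromosome 10, 128567523 to 128589652, minus strand). It had the lowest relative spread of the 10 genes, with an SD of 11.5% of its mean. Its ratio to Egfr was 0.567, 0.488 and 0.535, and Egfr was higher in 3 of 3 libraries by 0.90 ± 0.11 on the log2 scale (exact sign-flip p = 0.25). Melanocytes and Schwann cells are also known to express Erbb3. Their 8 markers summed to 20.9, 16.4 and 19.6 TPM, below the value of Erbb3 alone in each library. By mean the highest were Dct with 7.71, 9.21 and 7.14 TPM and Pmel with 5.92, 2.37 and 4.17 TPM. Tyr and Sox10 had at most 0.155 and 1.51 TPM. Mlana had 6, 10 and 0 counts. The part of these cells in the Erbb3 level was not tested.

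Erbb4, the remaining receptor of the family, had 3, 0 and 0 counts, against an upper limit of 3 counts or 0.0225, 0.0177 and 0.0157 TPM that a count of 0 allows in replicates 1, 2 and 3. The neuregulin Nrg3 had 0 counts in every library, which allows up to 0.0408 TPM. These limits cover counting error only. Summed over Egfr, Erbb2 and Erbb3, receptor transcripts came to 154, 179 and 150 TPM.

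Lrig1 (chromosome 6, 94604529 to 94700158, minus strand), a transmembrane protein known to promote the breakdown of EGF receptors, had 73.7, 65.4 and 45.4 TPM. Replicate 3 was low, and the ratio of Lrig1 to Egfr was 1.08, 0.891 and 0.789. The difference between them was smaller than its spread (Egfr minus Lrig1 0.13 ± 0.22 on the log2 scale, n = 3, exact sign-flip p = 0.5). The 6 upper follicle markers, of which Lrig1 is one, summed to 4715, 4235 and 3192 TPM, so the list was also lowest in replicate 3. Of the relatives of Lrig1, Lrig3 had 111.9 ± 21.6 TPM and Lrig2 had 8.70 ± 2.08 TPM (SD, n = 3). Lrig3 was higher than Lrig1 in all 3 libraries, at 134, 91.4 and 109.8 TPM.

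Hbegf, the heparin-binding ligand, was the only ligand in the upper tier, with 53.2, 64.0 and 46.0 TPM (chromosome 18, 36504927 to 36515805, minus strand) from 1361, 2081 and 1683 counts. It made up 62.1%, 77.5% and 56.3% of the summed TPM of the 6 ligands, a mean of 65.3% ± 10.9 (SD, n = 3). Hbegf was 5.83, 9.78 and 5.92 times as high as Tgfa. Egfr exceeded it in 3 of 3 libraries, by 0.29 ± 0.08 on the log2 scale (exact sign-flip p = 0.25). Hbegf is also known to rise early after growth factors and tissue injury. It was highest in replicate 2. Of the 12 early response genes, 11 were highest in replicate 1, against 59.6% of all genes with a mean of at least 1 TPM. Fosb was highest in replicate 2 (2107, 2538 and 1513 TPM). The part of such a response in the Hbegf level was not tested.

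Tgfa (chromosome 6, 86195223 to 86275719, plus strand), a ligand known from keratinocytes and the hair follicle, had 9.13, 6.55 and 7.77 TPM, or 9.37% ± 1.38 of the ligand TPM (SD, n = 3). This share depends on gene length, and in counts instead of TPM it was 20.8%. Its SD was 16.5% of its mean, the smallest in the lower tier and below the lower quartile of 17.9% over protein-coding genes at 1 to 10 TPM. The deposited length of Tgfa, 6490 bases, is 1.43 times that of its longest annotated coding transcript. With that transcript's length, an alternative chosen after seeing the data, the mean level of Tgfa was 8.67 TPM and its share of the ligand TPM 12.6%. Together the 6 ligands came to 85.6, 82.7 and 81.7 TPM, which is 0.521 ± 0.0511 times the receptor sum.

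The other 4 ligands are neighbours. Epgn, Ereg, Areg and Btc lie in that order on chromosome 5 (GRCm38, 91027464 to 91402994), a span of 375.5 kb in which the annotation places no other protein-coding gene. Areg encodes amphiregulin, Ereg epiregulin, Epgn epigen and Btc betacellulin. Summed over the 4 genes, the cluster gave 23.3, 12.1 and 27.9 TPM, below Hbegf alone in each library.

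Areg and Epgn followed the same order over the libraries, which in TPM was also that of Tgfa on chromosome 6. Areg had 6.49, 2.77 and 4.48 TPM in replicates 1, 2 and 3, from 85, 46 and 84 counts. Epgn had 7.70, 2.83 and 4.41 TPM, from 150, 70 and 123 counts. Both were highest in replicate 1 and lowest in replicate 2, under the deposited TPM, upper quartile scaling and TMM scaling alike. Their ratio (Areg over Epgn) was 0.843, 0.977 and 1.02. Replicates 1 and 2 differed beyond counting error. Epgn had a CPM (its counts relative to depth, with no length term) of 5.12 in replicate 1 (95% Wilson interval 4.37 to 6.01) and 1.98 in replicate 2 (1.57 to 2.51). For Areg the same values were 2.90 (2.35 to 3.59) and 1.30 (0.978 to 1.74). Areg in replicate 3, at 2.14 (1.73 to 2.65), overlapped both of these intervals, so its place in the order lay within counting error.

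Ereg and Btc were both highest in replicate 3. Ereg had 6.38, 3.49 and 12.8 TPM in replicates 1, 2 and 3, from 284, 197 and 815 counts, so the highest library was 3.67 times the lowest. Its SD of 63.1% of the mean was the largest of the 10 genes, against a median of 30.3% over 3949 protein-coding genes at 1 to 10 TPM. Btc had 2.71, 2.99 and 6.24 TPM, from 132, 185 and 435 counts, with replicates 1 and 2 low and replicate 3 high. Btc had a CPM of 11.1 (95% Wilson interval 10.1 to 12.2) in replicate 3 and of 5.25 (4.54 to 6.06) in replicate 2. Of the 5 suprabasal markers, 4 were highest in replicate 3, among them Krt10 at 1181, 1588 and 2910 TPM. Ivl was highest in replicate 1 at 28.4, 15.7 and 24.5 TPM. The 8 sebaceous gland markers summed to 219.6, 255 and 316 TPM, with 4 of 8 highest in replicate 3. Over all genes with a mean of at least 1 TPM, 20.4% were highest in replicate 3. Both marker sums were lowest in replicate 1, as was Btc, while Ereg was lowest in replicate 2. The part of suprabasal and sebaceous cells in the Ereg and Btc values was not tested.

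Levels within the cluster depend on gene length. The deposited length of Btc, 4520 bases, is 1.57 times its longest annotated coding transcript. With that transcript's length Btc rose from a mean of 3.98 to 4.85 TPM, above Epgn at 3.95 and Areg at 3.54 TPM. The lower tier still lay below the upper one.

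**Figure D2:**
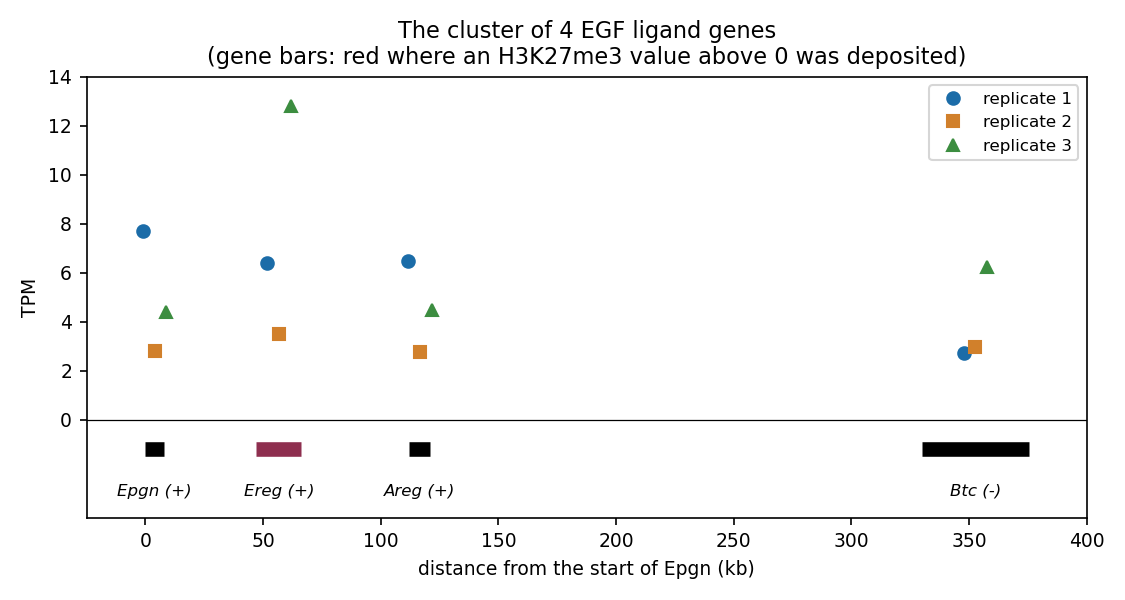
The 4 clustered ligand genes drawn to scale by distance from the start of Epgn (kb), with the TPM of each library above; the gene bar is red where the authors deposited an H3K27me3 value above 0. Replicate 1 is highest for Epgn and Areg, and replicate 3 for Ereg and Btc, where Ereg reaches 12.8 TPM.

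Promoter sequences are shown for the cluster, since its members shared an order over the libraries in one case and not in others. In TPM the order of Areg and Epgn was also that of Tgfa outside the cluster, so it was not particular to these neighbours. Whether promoter sequence bears on that order was not tested. Sequences came from a table of RefSeq promoters (GRCm38.p6), in which 7 of the 10 genes were matched, and those of Ereg, Hbegf and Erbb3 were not used here. In the 250 bases before each RefSeq start, 3 motifs were searched on both strands: the TATA box as TATAAA, the core of the cAMP response element as TGACGT, and the AP-1 site as TGANTCA. Capitals mark the matches. Bases are shown up to the first annotated transcript start of either RefSeq or GENCODE, which shortens Epgn to 197 bases.
Areg (chr5:91139349-91139598, plus strand): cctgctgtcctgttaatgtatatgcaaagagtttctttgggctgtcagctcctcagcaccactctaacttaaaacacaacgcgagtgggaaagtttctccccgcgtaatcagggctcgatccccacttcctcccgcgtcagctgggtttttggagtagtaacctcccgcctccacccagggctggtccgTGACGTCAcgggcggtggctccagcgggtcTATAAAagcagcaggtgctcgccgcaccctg
Epgn (chr5:91027267-91027463, plus strand): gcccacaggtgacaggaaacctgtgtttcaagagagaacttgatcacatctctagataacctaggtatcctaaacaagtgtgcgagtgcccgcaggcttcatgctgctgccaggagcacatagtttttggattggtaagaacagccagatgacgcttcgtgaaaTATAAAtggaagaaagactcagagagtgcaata
Btc (chr5:91402995-91403244, minus strand): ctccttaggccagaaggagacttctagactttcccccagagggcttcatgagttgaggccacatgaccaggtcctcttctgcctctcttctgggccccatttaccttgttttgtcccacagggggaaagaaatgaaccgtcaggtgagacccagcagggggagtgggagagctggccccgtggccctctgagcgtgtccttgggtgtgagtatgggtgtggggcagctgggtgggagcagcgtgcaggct

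The Areg promoter held TATAAA from -31 to -26 of the RefSeq start and TGACGT on both strands from -61 to -54, where the 2 matches overlap as a palindrome. The Epgn promoter held TATAAA from -86 to -81 of its RefSeq start at 91027517. The GENCODE start of Epgn lies upstream of that, at 91027464, so the match is closer to the GENCODE start. Btc, Tgfa, Egfr, Erbb2 and Lrig1 held none of the 3 motifs in this window. Over 32851 RefSeq promoters of this length, 12.4% held TATAAA, 6.47% held TGACGT and 6.75% held TGANTCA. The promoters also differed in composition, with 26 CpG dinucleotides in Lrig1, 11 in Egfr, 15 in Areg, 5 in Epgn and 4 in Btc, against a median of 6. These are matches of letters, and binding was not measured.

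Replicate 1 held the highest value of 5 of the 10 genes, replicate 2 of 3 and replicate 3 of 2. Over all genes with a mean of at least 1 TPM the shares were 59.6%, 20.0% and 20.4%, so the members did not exceed that background in replicate 1. The number in replicate 1 depended on scaling. It was 3 after upper quartile scaling, with 45.8% of all genes, and 2 after TMM scaling of counts, with 42.7% of all genes. Epgn and Areg were those 2. Erbb2 and Btc were lowest in replicate 1 under each of these scalings.

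**Figure D3:**
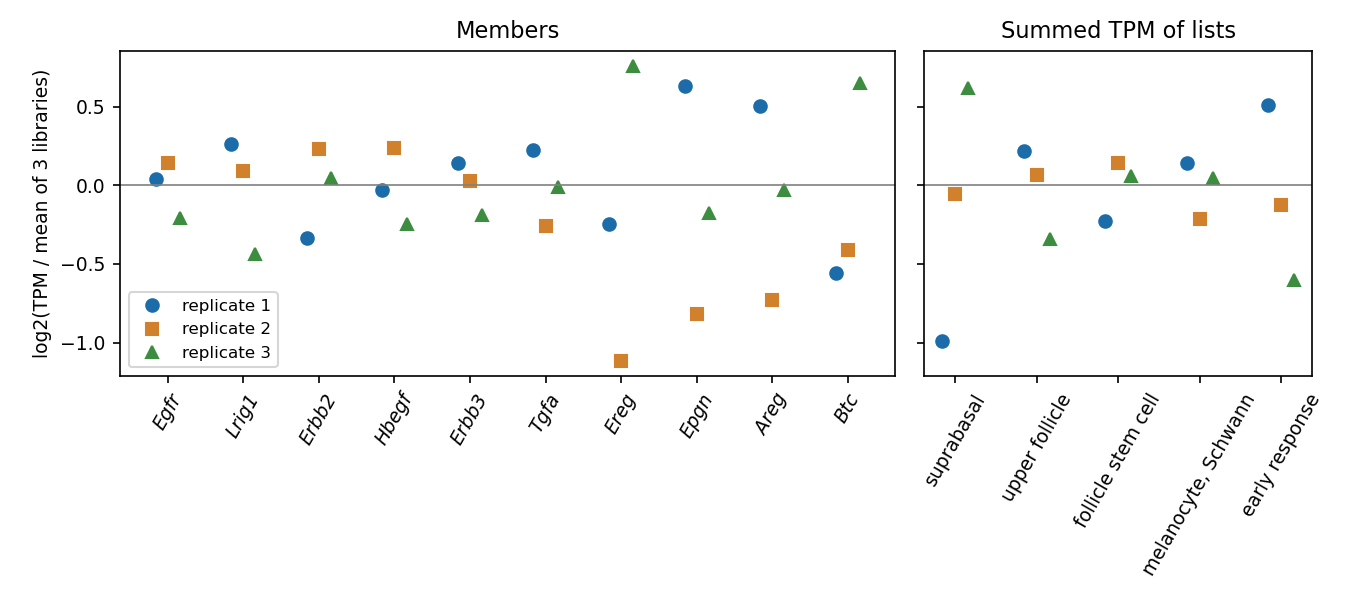
Left, log2 of each library's TPM over the gene's mean of the 3 libraries; right, the same for the summed TPM of 5 gene lists. The 5 genes of the upper tier stay within about 0.5 of their mean, while Ereg, Epgn, Areg and Btc spread further; the suprabasal sum is lowest in replicate 1 and highest in replicate 3.

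Other genes of the pathway were read as lists by role. The other 6 genes of the EGF family (Erbb4, Egf, Nrg1, Nrg2, Nrg3 and Nrg4) were low, with 1 of 6 at a mean of at least 1 TPM and a median of 0.178 TPM, where the median over 11760 protein-coding genes with at least 1 TPM was 17.5 TPM. The exception was Nrg2, a neuregulin, with 4.61, 3.22 and 4.46 TPM. Nrg4 had 1.05, 0.192 and 0.395 TPM.

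Of the 6 genes of ligand shedding, 5 had a mean of at least 1 TPM and the median was 25.7 TPM. The highest was Rhbdf1, which encodes an inactive rhomboid protein that helps the protease Adam17 to mature, with 56.2 ± 10.1 TPM (SD, n = 3). The protease gene Adam9 followed with 34.7 ± 5.34 TPM. Adam12 had 7, 9 and 12 counts, a mean of 0.0657 TPM.

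All 22 adaptors and effectors had a mean of at least 1 TPM, with a median of 41.3 TPM. The highest were the kinase gene Mapk3 with 280.1 ± 32.0 TPM and Hras with 118 ± 16.1 TPM. The lowest were the Ras exchange factor gene Sos1 with 8.62 ± 0.584 TPM and the kinase gene Braf with 7.89 ± 3.01 TPM.

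All 15 feedback and receptor turnover genes also had a mean of at least 1 TPM, with a median of 24.4 TPM. Socs3, an inhibitor of Jak and Stat signalling, was highest with 323 ± 80.3 TPM. Errfi1 encodes an inhibitor that binds the EGF receptor kinase, and had 170, 60.7 and 64.3 TPM, with replicate 1 far above the others. Spry4 and Dusp4, known inhibitors of the MAP kinase pathway, were lowest with 3.35 ± 0.751 and 2.45 ± 0.588 TPM. Replicate 1 was the highest library for 10 of these 15 genes and for 11 of the 12 early response genes, against 59.6% of all genes. After TMM scaling, a recount chosen after seeing the data, the numbers were 6 and 10, against 42.7% of all genes. Fos was the highest early response gene with 10120, 5406 and 4269 TPM.

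**Figure D4:**
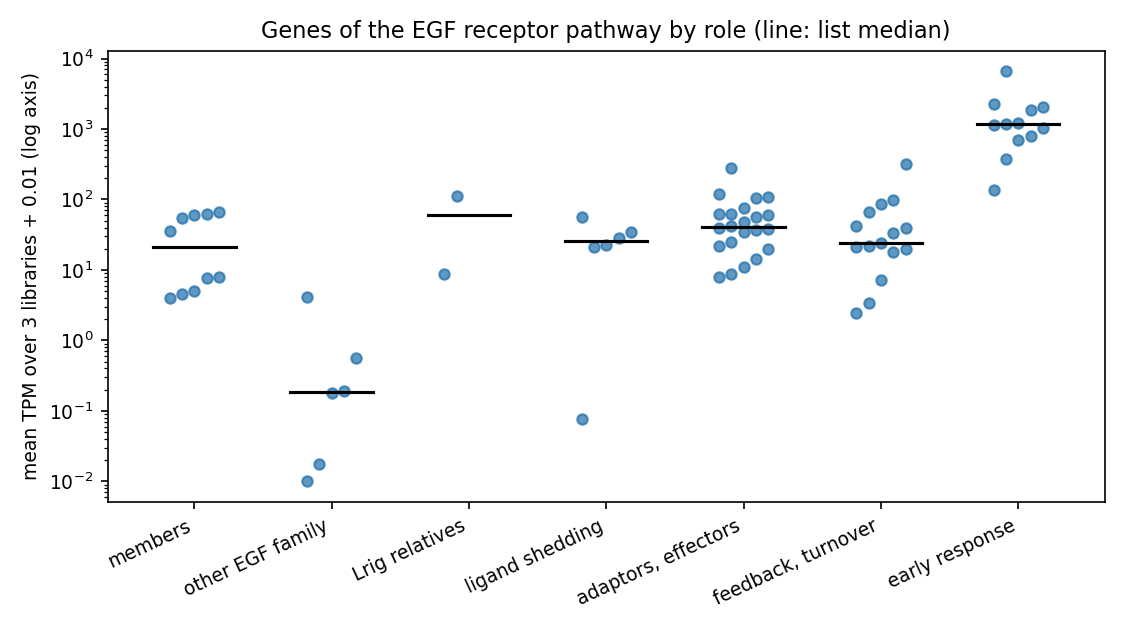
Mean TPM over the 3 libraries plus 0.01 (log axis) for each gene of the pathway by role; the line is the list median. The other EGF family genes lie lowest with a median of 0.178 TPM, and the early response genes highest with a median of 1160 TPM.

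The authors also deposited a comparison of these libraries with others. Names of 6 unused columns of per-sample values carry the word bulge, from which the other side was taken to be bulge cells, the stem cell compartment of the follicle; the labels do not state it. For the direction, 2553 genes without a count in any of the 3 libraries were read, and 2553 of them carried a negative fold change in the authors' deposited table, so positive means higher in the Αlpha6+/Sca1- libraries. Of the 10 genes, 6 had an adjusted p under 0.05 in the authors' deposited table, 4 of them higher and 2 lower. Over all 20266 genes with an adjusted p, 55.5% were called, 23.6% higher and 32.0% lower. Among those with a mean of at least 1 TPM, as all members have, 60.8% were called, 35.1% higher and 25.6% lower. The members' share was thus near the background and is no result about them as a group.

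Single genes moved in opposite directions. Hbegf was higher, with a log2 fold change of 2.07 and an adjusted p of 1.30e-12 in the authors' deposited table. The same table gave Lrig1 as higher by 1.15 (adjusted p = 5.16e-07), Btc by 1.52 (0.0135) and Erbb2 by 0.70 (0.0380). Egfr was lower, with a log2 fold change of -1.65 (adjusted p = 4.01e-16) in the authors' deposited table. Epgn was lower as well, at -1.59 (adjusted p = 0.000301) in that deposited table. Neither Erbb3 (0.05, adjusted p = 0.881), Areg (0.52, 0.550), Ereg (1.04, 0.0758) nor Tgfa (0.00, 0.998) passed the threshold in the authors' deposited table. At an adjusted p under 0.01, Hbegf and Lrig1 were the higher and Egfr and Epgn the lower calls.

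The deposited fold change moved with gene length. Across 11749 protein-coding genes with at least 1 TPM, Spearman's rho between the authors' log2 fold change and the deposited length was -0.543. Since genes are no independent replicates, this is a description without a p. The median fold change in the authors' deposited table was 1.34 in the quartile of shortest genes (up to 2551 bases), 0.66 and 0.09 in the middle quartiles, and -0.78 in the quartile of longest genes (from 6282 bases). The part of length in the members' fold changes was not tested. How the libraries on the other side were prepared is not given in the sources used here, so preparation and cell type cannot be told apart in any of these fold changes.

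Set against genes of its own length quartile, Epgn stood lowest of the members. Its 1807 bases place it among the shortest genes, of which 2.42% had a lower fold change in the authors' deposited table. Egfr, with 11326 bases, lay among the longest genes, where its fold change was at the percentile of 20.3 and 0.87 below the median. Hbegf, with 2373 bases, was at the percentile of 70.4 of the shortest quartile, 0.73 above its median. Lrig1 was at the percentile of 81.1 of its quartile, Btc at 87.8, Ereg at 78.8, Tgfa at 74.6, Erbb2 at 69.1, Erbb3 at 48.8 and Areg at 27.6. Upper follicle markers were mostly called higher in the authors' deposited table (5 of 6, Lrig1 included). So were suprabasal markers (5 of 5) and early response genes (9 of 12). Hair follicle stem cell markers were split in that deposited table, with 3 of 8 higher and 3 lower. Basal keratinocyte markers had 3 of 5 higher and 1 lower there, and sebaceous gland markers 4 of 8 higher and 0 lower. Melanocyte and Schwann markers had 2 of 8 higher, and immune and fibroblast markers 0. The background in the authors' deposited table was 35.1% called higher among all genes with a mean of at least 1 TPM, and 61.1% of protein-coding ones in the quartile of shortest genes. The part of these marker genes' cells and of the early response in the calls of Lrig1, Hbegf and Btc was not tested.

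**Figure D5:**
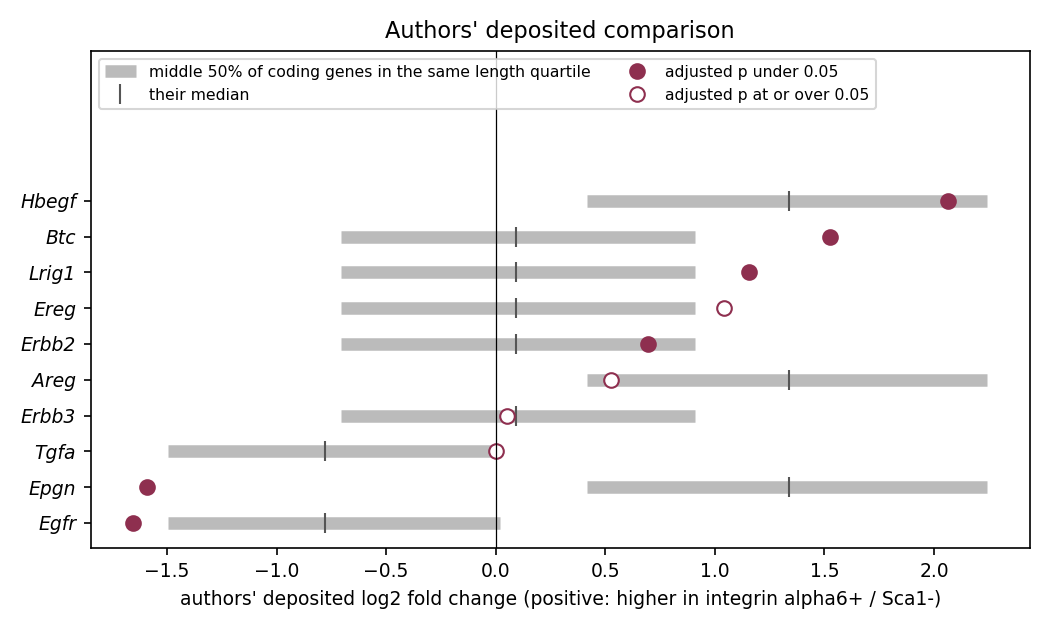
Authors' deposited log2 fold change of each gene (circles, filled where the adjusted p was under 0.05), with the middle 50% (grey bar) and the median (tick) of expressed protein-coding genes in the same quartile of length. Epgn at -1.59 lies far left of its bar, Egfr at -1.65 just left of a bar that is itself mostly below 0, and Btc, Lrig1 and Ereg to the right of theirs.

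In the same lists of pathway genes, calls in the authors' deposited table went both ways and are to be read against the 35.1% higher and 25.6% lower among all genes with a mean of at least 1 TPM. Of the 22 adaptors and effectors, 7 were called higher, 7 lower and 8 neither. Of the 15 feedback genes, 4 were higher, among them Socs3 with a log2 fold change of 3.51, and 7 lower, among them Errfi1 with -0.70. Of the 6 shedding genes, Rhbdf1 (2.35) and Rhbdf2 (1.22) were higher and 0 lower. Of the 5 other EGF family genes with an adjusted p in the authors' deposited table, Nrg2 was higher (2.06), Nrg1 (-3.13), Nrg4 (-2.12) and Egf (-1.75) were lower, and Erbb4 was not called. In that deposited table Lrig2 was lower with -1.64 and Lrig3 was not called (0.10, adjusted p = 0.649).

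The authors further gave each gene a number under the heading H3K27me3, the name of a repressive histone mark, without its unit or source cells. Ereg was the one member with a number other than 0 in the authors' deposited table, 5547, where 11.2% of protein-coding genes had one. Its cluster neighbours Epgn, Areg and Btc had 0. No other gene entry carried the value of Ereg, which exceeded 36.8% of the 3591 values above 0. Of these 3591 genes, 12.5% had a mean of at least 1 TPM, and 4.51% had a mean at or above that of Ereg (7.56 ± 4.77 TPM, SD, n = 3). Without replicate 3 the mean of Ereg was 4.93 TPM. The authors' deposited score multiplies this number plus 1 by the fold change and the -log10 adjusted p. It put Ereg at rank 244 of 20266 genes, ahead of the other members, the next of which was Hbegf at rank 1582. Of those 20266 genes, 1354 had a number above 0. The lead of Ereg over the other members rests on that number, which was 0 in all of them. Its fold change in the authors' deposited table did not pass the threshold (adjusted p = 0.0758). Of the other 6 EGF family genes, 4 carried such a number in the authors' deposited table, namely 29158 for Nrg2, 8193 for Nrg4, 6658 for Nrg3 and 5078 for Egf.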

How the data were processed

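Gene expression was measured by RNA sequencing in 3 libraries of 1 group. Per the file headers, the authors deposited read counts (whole numbers, unnormalized) and TPM for each gene, and TPM recomputed from counts and the deposited length differed by at most 4.72e-06. Per the submitters' processing notes, FastQC, TopHat2, SAMtools, DESeq and DESeq2 were used with mm10 (GRCm38); the counting tool and strand setting are not given in the sources used here. The log2 fold change, its adjusted p-value, an H3K27me3 number and a score were deposited by the authors as well, and the test behind the p-value was not stated. Another 6 columns of per-sample values match no sample and were not used. Coordinates come from GENCODE M21 (GRCm38) by identifier. For symbols with several entries the highest was kept, which left 44549 genes.

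The 10 members, the gene lists and the tests were chosen with earlier results of these data known. All members are named, and of each pathway list at most the 2 highest and 2 lowest genes by mean TPM, apart from Fosb, Egf and Nrg1. Fos, Krt10 and single markers are named beside the results they touch. Fosb, Rhbdf2, Egf, Nrg1 and the markers were named after their values were seen. Differences in level were taken as log2(TPM + 1), so those of low genes are understated, and tested over libraries by exact two-sided sign-flip permutation with Benjamini-Hochberg adjustment over 12 pairs. Python 3.11.15 with scipy 1.17.1 was used, and edgeR 4.0.16 for TMM factors. The library-shift statistic was checked on simulated data. Depth was 29283936 to 39198620 counts, and 95% Wilson intervals cover counting error only. Alternatives were the pseudocount, scaling, filters, thresholds, gene length and leaving out each library.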

Additional observations from a re-analysis of the deposited data

How the results depend on the processing

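Of 215 alternative values, 186 stayed within the spread, direction or margin of the reported one. The steps from Erbb3 to Tgfa (1.92 to 2.13 when each library was left out in turn) and from Hbegf to Erbb3 (0.50 to 0.69) kept their direction under each alternative. With each library left out in turn, 6 other differences on the log2 scale changed sign: Lrig1 minus Erbb2 (-0.26 to 0.27), Erbb2 minus Hbegf (-0.029 to 0.26), Tgfa minus Ereg (-0.10 to 0.60), Ereg minus Epgn (-0.0044 to 0.79), Areg minus Btc (-0.24 to 0.47) and Egfr minus Erbb2 (-0.0069 to 0.30). The length of the longest coding transcript turned Areg minus Btc to -0.34. TMM scaling turned the lead of replicate 1 in Erbb3 to -0.034. Members highest in replicate 1 numbered 3 with upper quartile scaling (45.8% of all genes) and 2 with TMM (42.7%). Of the 7 members with a mean of at least 5 TPM, 3 were highest in replicate 1, against 59.2% of all such genes. The share of Hbegf among ligands was 53.4% in counts instead of TPM. At an adjusted p under 0.01 the higher calls fell to 2. The share of all genes called at that threshold was not computed, so the fall cannot be set against a background. Without the unused columns the authors' calls could not be refitted with a library left out. No paired analysis was possible because there is 1 group. With 3 libraries no single comparison can reach an exact p below 0.25, and Areg and Epgn rest on 46 to 150 counts.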
